A study of Mus musculus with 56 samples.

Results

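The cytosolic ribosomal protein genes were followed through blood progenitors of WT mice and of mice that lack Tet2 and carry an internal tandem duplication in Flt3 (genotype Tet2-/-Flt3ITD, called T2F3 here). Members were the rows of the RNA-seq table whose Entrez ID belongs to a symbol that starts with Rpl or Rps and a digit, or to Rplp0, Rplp1, Rplp2 or Rpsa, without the Rps6k kinases and without pseudogenes. These symbols matched 97 of the 24424 listed genes, 8 of which were left out as pseudogenes, so that 89 remained. They comprise 46 proteins of the large subunit, 31 of the small subunit, 7 paralogs, 4 retrocopies and Rps19bp1, which encodes a partner of the small-subunit protein RPS19 and is no ribosomal protein itself. The cells came from C57BL/6 bone marrow by sorting. Multipotent progenitors (MPP) carried Sca-1, c-Kit and CD48 and lacked lineage markers and CD150, and granulocyte-macrophage progenitors (GMP) carried c-Kit, CD34 and CD16/32 and lacked lineage markers and Sca-1. There were 4 libraries of WT MPP, 3 of T2F3 MPP, 5 of WT GMP and 3 of T2F3 GMP. The labels give no age, and they name no separate animal for each library, so p-values rest on a spread between libraries that may be technical. Both lesions are present together in every T2F3 library, so their effects cannot be told apart.

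Each ribosome is built from ribosomal RNA and a fixed set of proteins, most of them needed in equal numbers, and their genes are among the most strongly transcribed of growing cells. Many of their mRNAs start with a cytosine followed by a run of pyrimidines, the TOP element, through which the kinase complex mTORC1 and the RNA-binding protein LARP1 control their translation. In blood formation, loss of a single copy of several of these genes causes Diamond-Blackfan anaemia, and free RPL5 and RPL11 bind the p53 regulator MDM2.

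The start sites of 12 members are printed to show starts with and without the motifs counted below. Each printed member was correlated across the libraries with the median of the other members. With a motif, r was 0.924 to 0.995 for Rplp2, Rpl15, Rps10, Rpl35, Rps18 and Rpl22l1, and 0.695 for Rpl28. Without one, it was 0.997 for Rps6, 0.876 for Rpl7l1, 0.691 for Rps19bp1, 0.44 for Rpl4 and 0.11 for Rps2. The motifs cover only part of the TOP element. Rps6 has neither, but its stretch reads ctctttttc from the start, a cytosine followed by pyrimidines. Rpl4 has CTTTC more than 10 bases before the start, outside the part searched, in a pyrimidine run that reads tctttccttttcct. The 12 genes were chosen after their values and sequences had been seen, so this split is a description and was not tested. Sequences are from RefSeq on the GRCm38.p6 build, run 5′ to 3′ on the gene's strand from 40 bases before the start to 25 bases from it, and capitals mark CTTTC or CTTCC between 10 bases before and 20 bases after the start. The windows are chr7:141447611-141447675 (plus strand) for Rplp2, chr14:18270962-18271026 (minus) for Rpl15, chr17:27635220-27635284 (minus) for Rps10, chr2:39005107-39005171 (minus) for Rpl35 and chr17:33955641-33955705 (minus) for Rps18. They are chr7:4792925-4792989 (plus) for Rpl28, chr3:28805468-28805532 (plus) for Rpl22l1, chr4:86857343-86857407 (minus) for Rps6 and chr17:46782632-46782696 (minus) for Rpl7l1. The last 3 are chr17:24720023-24720087 (plus) for Rps2, chr9:64173347-64173411 (plus) for Rpl4 and chr15:80264282-80264346 (minus) for Rps19bp1.
Rplp2: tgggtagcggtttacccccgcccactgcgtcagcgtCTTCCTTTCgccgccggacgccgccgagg
Rpl15: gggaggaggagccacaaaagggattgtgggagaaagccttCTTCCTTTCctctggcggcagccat
Rps10: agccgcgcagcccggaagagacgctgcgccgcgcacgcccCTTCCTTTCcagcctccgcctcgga
Rpl35: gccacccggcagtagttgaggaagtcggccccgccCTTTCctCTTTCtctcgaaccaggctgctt
Rps18: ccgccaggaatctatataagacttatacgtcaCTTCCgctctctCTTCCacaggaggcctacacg
Rpl28: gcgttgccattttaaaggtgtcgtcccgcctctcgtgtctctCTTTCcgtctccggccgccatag
Rpl22l1: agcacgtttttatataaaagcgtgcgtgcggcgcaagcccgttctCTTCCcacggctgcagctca
Rps6: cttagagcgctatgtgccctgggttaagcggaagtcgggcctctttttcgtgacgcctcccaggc
Rpl7l1: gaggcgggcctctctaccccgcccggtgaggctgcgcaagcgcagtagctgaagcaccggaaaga
Rps2: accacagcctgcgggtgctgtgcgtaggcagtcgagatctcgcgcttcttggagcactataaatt
Rpl4: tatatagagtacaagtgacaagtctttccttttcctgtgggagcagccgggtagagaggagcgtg
Rps19bp1: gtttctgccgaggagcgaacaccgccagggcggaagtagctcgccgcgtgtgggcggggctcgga

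Of the 89 members 69 had a window in the RefSeq promoter table, with 81 windows in all. CTTTC or CTTCC on the gene's strand near the start was found in 35.8% of member windows and in 9.8% of all 32851 windows. Taken singly, and overlapping in part, CTTTC was in 20.99% of member windows against 3.74% of all, and CTTCC in 19.75% against 6.36%. CCGGAAG, a core bound by ETS-family factors, was in 33.33% against 8.86% on either strand of the whole window. AAGATGG, a core bound by YY1, was in 14.81% against 6.34%. These motifs were chosen after the sequences had been seen. Members with CTTTC or CTTCC had a median T2F3 minus WT difference in MPP of 0.75 (25 tested members), and those without it 0.72 (38 tested members), and this comparison was not tested.

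Levels are the authors' regularized log2 values, in which a difference of 1 is a doubling and low genes are drawn together. They are not divided by transcript length, so the level of one gene is not compared with that of another. Testing covered the 12133 genes whose mean was at least 4, among them 82 members. The table gave means of 14.77 for the stalk protein gene Rplp0, 14.61 for Rpsa, whose product also occurs as a laminin receptor, and 14.38 for Rps3. Among tested members the lowest means were 4.37 for Rpl34, 7.53 for Rps19bp1 and 9.94 for the paralog Rps27l.

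The 7 untested members were Rpl26, Rpl30, Rps27, Rpl3l, Rpl10l, Rpl39l and Rps27rt. Rpl26 and the retrocopy Rps27rt were listed at 0 in all 15 libraries, Rpl30 ran from 2.89 to 3.48 and Rps27 from 3.35 to 4.05. Rpl26, Rpl30 and Rps27 encode proteins that every ribosome holds, and no value of theirs is read further. The striated-muscle paralog Rpl3l (mean 2.00) and the germ-line paralogs Rpl39l (0.44) and Rpl10l (-2.47) were also low.

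Ribosomal protein genes have many processed copies, and how the authors counted reads shared between them is not given in the sources used here. The pseudogene Rpl14-ps1 stood at a mean of 13.20 beside 13.08 for Rpl14, and the difference between them was 0.12 ± 0.04 over the 15 libraries (SD). The retrocopies that count as members followed their parents as closely: Rps23rg1 minus Rps23 was -0.18 ± 0.02, Rpl37rt minus Rpl37 was 0.37 ± 0.03 and Rpl32l minus Rpl32 was -1.44 ± 0.05 (SD, n = 15). Values of members with such copies are therefore uncertain as values of 1 locus.

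The targeted genes and the labels were checked in the same table. Tet2 lay between 9.71 and 9.89 in WT MPP and between 9.67 and 9.90 in T2F3 MPP, and between 9.87 and 10.19 in WT GMP and 9.88 and 10.30 in T2F3 GMP, and a gene-level value does not check the deletion of part of a gene. Flt3 had a mean of 11.38 in WT MPP, 11.32 in T2F3 MPP, 8.81 in WT GMP and 10.09 in T2F3 GMP. It was higher in T2F3 GMP than in WT GMP by 1.279 ± 0.115 (SE, limma adjusted p = 8.23e-07). All 8 GMP markers were higher in GMP than in MPP in both genotypes, and 7 of 8 MPP and stem cell markers, which include Flt3, were lower. The table gives no counts, so the depth of the libraries is unknown.

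WT GMP 1 and T2F3 GMP 2 stood apart from their groups in the ribosomal protein genes. The median over the 82 tested members was 13.95 in WT GMP 1 and 13.02, 12.71, 12.77 and 12.72 in the other WT GMP libraries. It was 13.92 in T2F3 GMP 2, 13.17 in T2F3 GMP 1 and 12.82 in T2F3 GMP 3. The MPP libraries were tight, at 12.53, 12.50, 12.63 and 12.51 in WT and 13.25, 13.25 and 13.27 in T2F3. In WT GMP 1, 81 of 82 members exceeded the average of the remaining WT GMP libraries, by a median of 1.06, and in T2F3 GMP 2, 78 of 82 did, by 0.80. In T2F3 GMP 3 all 82 lay below the average of the other T2F3 GMP libraries, by a median of 0.61. Of all 12133 tested genes 5794 lay above in WT GMP 1 and 5663 in T2F3 GMP 2, and 5322 lay below in T2F3 GMP 3.

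**Figure D1:**
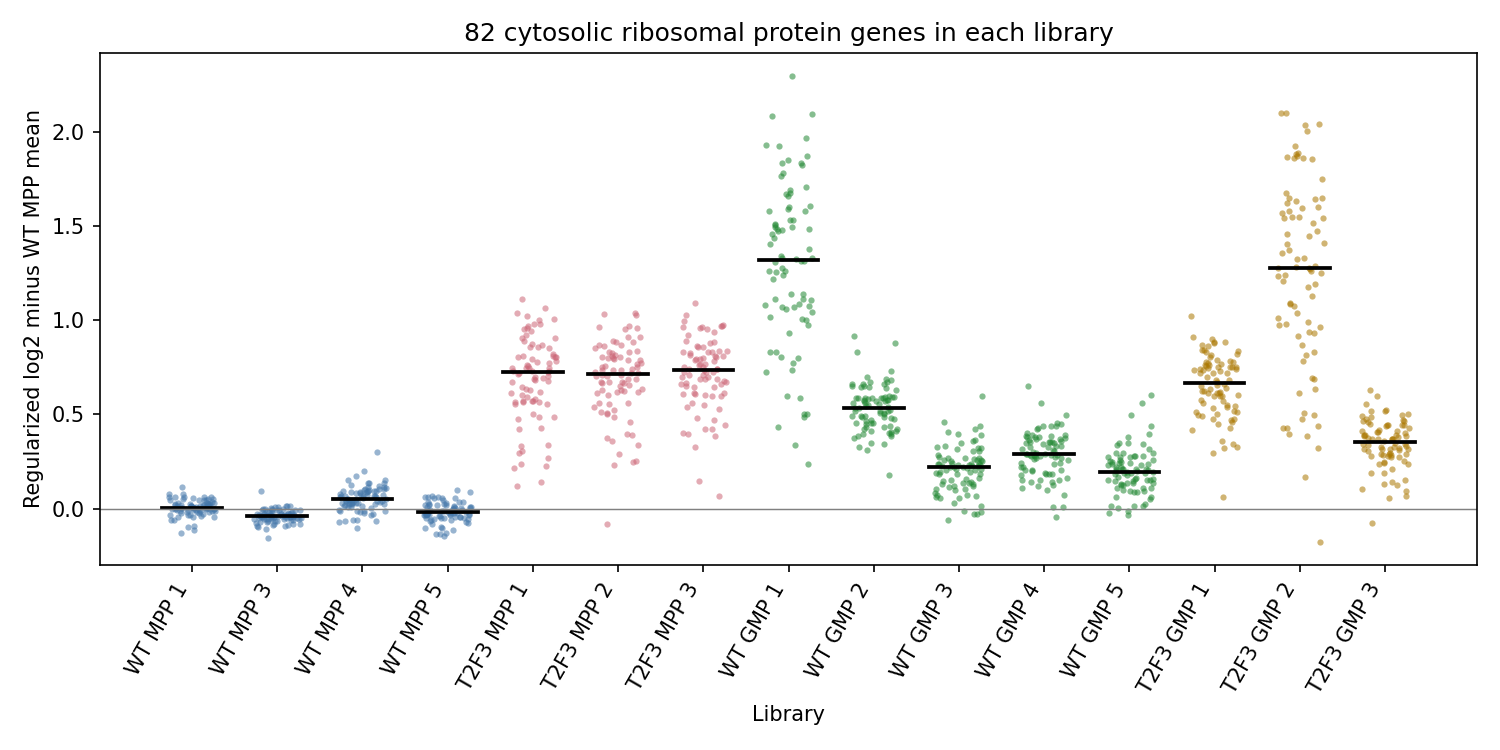
Level of each of the 82 tested ribosomal protein genes in each of the 15 libraries, minus that gene's mean over the 4 WT MPP libraries (regularized log2, y axis). Points are genes, coloured by group, and black bars are medians over genes. The 3 T2F3 MPP libraries sit above the 4 WT MPP libraries, and WT GMP 1 and T2F3 GMP 2 sit above the rest of their groups.

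The deviations of these GMP libraries had nearly the same profile across members. Over the 82 members, the deviation of WT GMP 1 from the other WT GMP libraries and that of T2F3 GMP 2 from the other T2F3 GMP libraries correlated at r = 0.984 (Spearman's rho 0.986), with no library in common. Both profiles also resembled the genotype difference in MPP, at r = 0.835 for WT GMP 1 and r = 0.857 for T2F3 GMP 2, again with no library in common. The T2F3 GMP 2 profile had r = -0.025 with the WT difference between GMP and MPP computed without WT GMP 1. These correlations are across genes of 1 family, which share libraries, copies and scale and are not independent points. Deviations from the group mean were also correlated over all 12133 tested genes. There WT GMP 1 reached r = 0.809 with T2F3 GMP 2 or T2F3 GMP 3, whichever was higher. High correlations were therefore not confined to the ribosomal protein genes.

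Rps24, a small-subunit protein gene, shows the large end of this pattern, with a deviation of 1.67 in WT GMP 1 and 1.46 in T2F3 GMP 2. Its levels were 15.44 in WT GMP 1 and 13.62 to 14.01 in the other WT GMP libraries. Rpl4 and Rps2 lay at the other end. Rpl4, a protein of the peptide exit tunnel, read 14.37, 14.54, 14.39, 14.36 and 14.37 in WT GMP 1 to 5 and 14.61, 14.31 and 14.41 in T2F3 GMP 1 to 3, so neither library stood above its group. Rps2, which lines the mRNA entry, read 10.68 in T2F3 GMP 2, the lowest of the T2F3 GMP libraries.

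**Figure D2:**
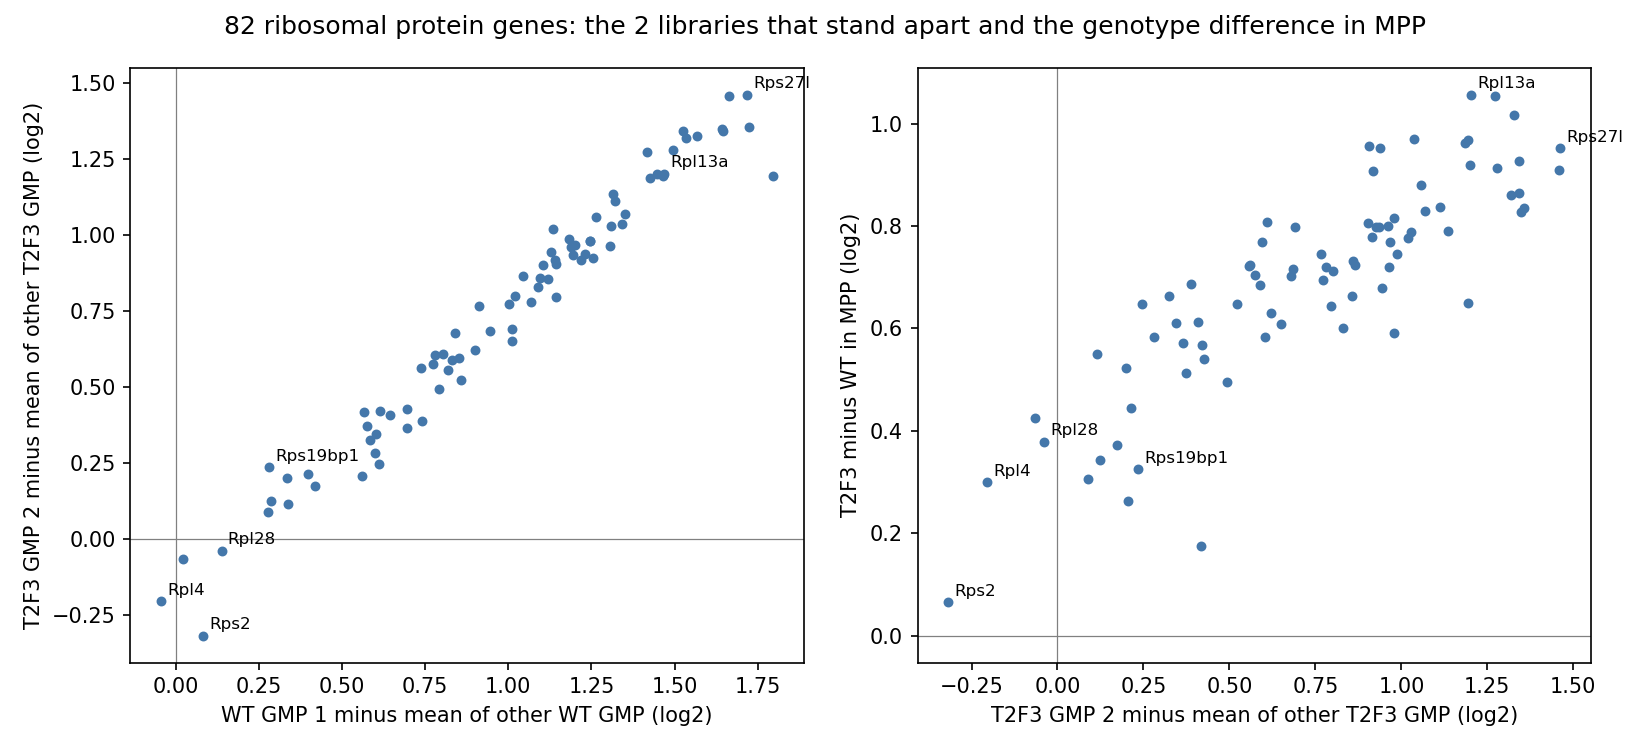
Left, deviation of T2F3 GMP 2 from the mean of the other T2F3 GMP libraries (y) against that of WT GMP 1 from the other WT GMP libraries (x), and right, T2F3 minus WT in MPP (y) against the T2F3 GMP 2 deviation (x), all in regularized log2. Each point is 1 of 82 ribosomal protein genes; Rps2, Rpl4 and Rpl28 lie at the low end of the left panel, where r is 0.984, and r is 0.857 in the right panel.

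Other values moved with these libraries. The summed level of 6 mature neutrophil markers (all tested, none at 0) was 17.36 in WT GMP 1 and 15.41 to 16.93 in the other WT GMP libraries, and 18.60 in T2F3 GMP 2 against 17.45 and 16.42. That of 8 GMP markers was 18.14 in WT GMP 1, the lowest of a range that reached 18.33, and 17.58 in T2F3 GMP 2, the lowest of a range that reached 18.16. Most GMP markers taken singly went the other way: 6 of 8 lay above the average of the remaining libraries in WT GMP 1 (median deviation 0.42) and 5 of 8 in T2F3 GMP 2 (0.14). Of the neutrophil markers taken singly, 4 of 6 lay above that average in WT GMP 1 and 4 of 6 in T2F3 GMP 2. In WT GMP 4, where the median over ribosomal protein members was 12.77, all 6 did. The part of these markers in the ribosomal protein result was not tested. Because a bulk library cannot separate fewer cells of a type from less RNA per cell, a level here is that of the sorted population.

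The genotypes were compared first in multipotent progenitors. The family was higher in the mutant cells: 65 of 82 tested members rose, none fell and 17 did not pass the threshold of 0.05. The median difference was 0.72 on the log2 scale, and the range ran from 0.07 to 1.06. Over all tested genes 20.7% rose and 19.6% fell, with a median of -0.02. In 80 of 82 members every T2F3 MPP library lay above every WT MPP library, which held in 28.1% of all tested genes. The rises were found in both subunits, with 32 of 41 large-subunit members and 24 of 30 small-subunit members.

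Rpl13a, whose product also takes part in silencing of inflammatory transcripts, rose the most. It read 13.15, 13.34, 13.35 and 13.14 in WT MPP and 14.36, 14.28 and 14.27 in T2F3 MPP, so the groups lay far apart. The difference was 1.06 ± 0.34 (SE, limma adjusted p = 0.0217), a 2.08-fold rise. Rpl41, the smallest protein of the ribosome, read 13.03, 13.03, 13.15 and 13.04 in WT and 14.10, 14.10 and 14.16 in T2F3, a difference of 1.05 ± 0.34 (adjusted p = 0.0224). Rpl17, at the exit of the nascent chain tunnel, rose by 1.02, Rps18, a protein of the small-subunit head, by 0.97 and Rpl32 by 0.97.

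The 4 groups share 1 estimate of the spread for each gene, and the GMP libraries that stand apart enter it. Without WT GMP 1 and T2F3 GMP 2 the difference of Rpl13a was 1.06 ± 0.10 (adjusted p = 3.53e-07). Rises then passed in 80 of 82 members, against 28.5% of all tested genes. Those libraries were picked because the members stood apart in them, so leaving them out lowers the members' spread by design. Counts and p-values without both libraries, here and below, are a description. Fitted on the MPP libraries alone, 80 members rose as well, with a median of 0.72 against -0.015 for all genes. The share of all genes that rose is not given here for that fit.

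The members that did not follow were few. Rps2 read 10.94, 10.79, 10.83 and 10.88 in WT MPP and 11.07, 10.78 and 10.92 in T2F3 MPP, so the groups overlapped, and its difference was 0.07 ± 0.12 (adjusted p = 0.675). Rpl34, low in the table, also overlapped, with 0.17 ± 0.18 (adjusted p = 0.443). Rpl29 differed by 0.26 ± 0.14 (adjusted p = 0.136) and Rpl4 by 0.30 ± 0.12 (adjusted p = 0.0604; -0.32 after quantile normalization), both with the groups apart. Rpl23 rose by 0.30 ± 0.11 (adjusted p = 0.0427), but stood at -0.02 after quantile normalization.

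The median difference stayed above 0 under every alternative fit listed in the processing. With the replicate number as a block it was 0.56, and 3 members rose. The share of all genes that rose is not given here for that fit or for those that follow. The number of members that rose varied in other fits too. It was 34 without T2F3 MPP 1, 22 without T2F3 MPP 2, 19 without T2F3 MPP 3, 35 without WT MPP 1, 33 without WT MPP 3 and 37 without WT MPP 5, and 27 after quantile normalization, where the median was 0.40. In the same MPP comparison the summed level of 4 dendritic cell markers ran from 11.65 to 12.61 in WT and from 14.46 to 15.33 in T2F3, and that of 4 tested B cell markers from 7.40 to 8.27 and from 5.67 to 5.87. The sum of 4 tested erythroid markers ran from 9.30 to 9.87 in WT and from 6.75 to 6.95 in T2F3, with Hbb-bs and Hbb-bt listed at 0 in all libraries. That of 4 tested megakaryocyte markers ran from 10.29 to 10.60 and from 8.58 to 9.76, and that of 8 MPP and stem cell markers from 14.18 to 14.28 and from 13.90 to 14.06. The part of these cell types in the result was not tested.

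**Figure D3:**
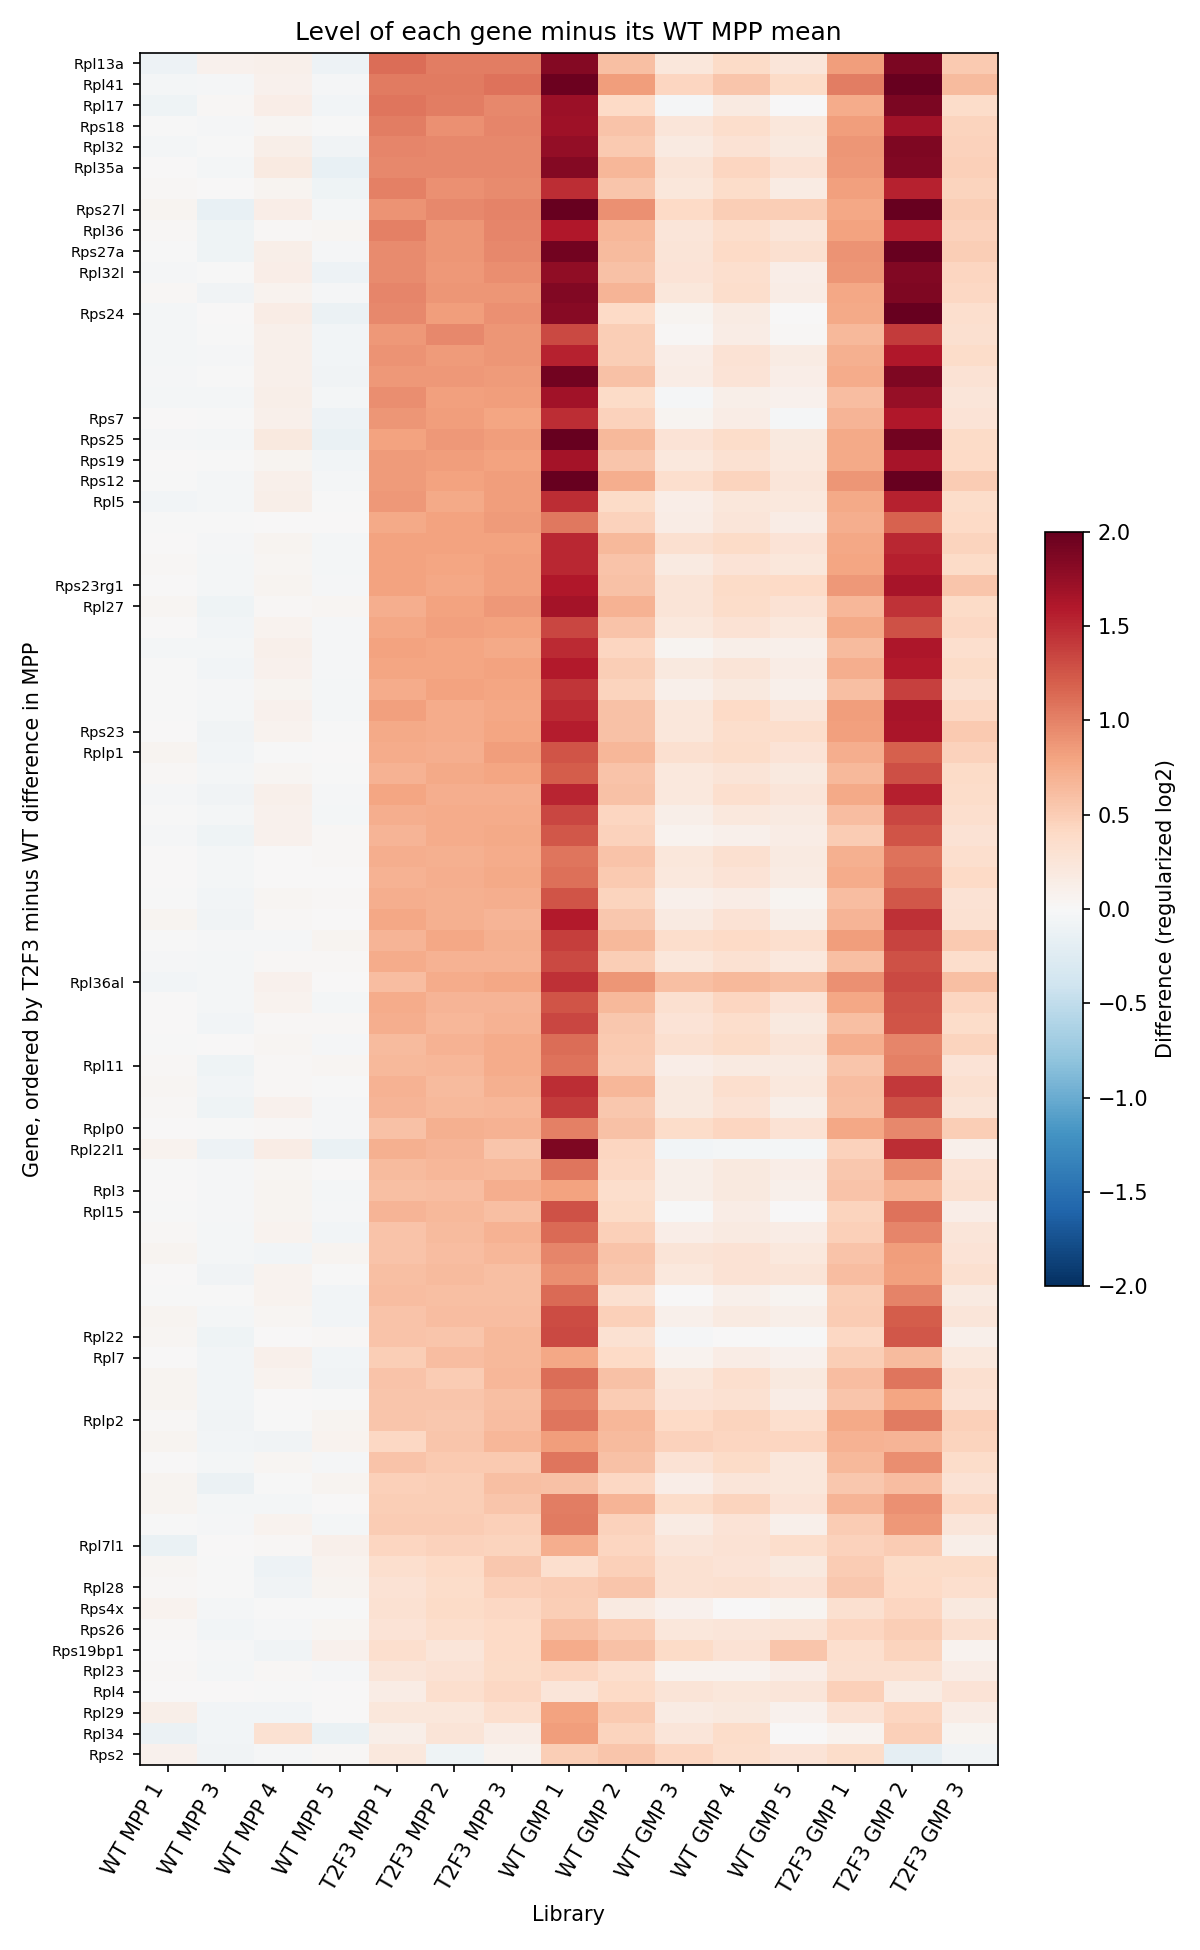
Each row is 1 of 82 tested ribosomal protein genes, ordered from the largest (top) to the smallest T2F3 minus WT difference in MPP, and each column is a library; labels mark most of the genes named in the text. Colour is the level minus the gene's WT MPP mean (regularized log2, red higher, limited to 2 either way). The bottom rows, from Rpl23 down to Rps2, are paler in most columns than the rows above.

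The next comparison was between genotypes in granulocyte-macrophage progenitors. No ribosomal protein gene rose in T2F3 GMP by limma and 1 of 82 fell, Rps2, with a median over members of 0.24 (all genes -0.02), and 1 member had an unadjusted p under 0.05. Over all tested genes 9.25% rose and 6.04% fell. No member had its T2F3 GMP libraries all above the WT GMP libraries, against 9.52% of all genes. Rps2 read 11.35, 11.42, 11.28, 11.21 and 11.13 in WT GMP and 11.22, 10.68 and 10.78 in T2F3 GMP, so 1 mutant library lay within the WT range. Its difference was -0.38 ± 0.11 (SE, adjusted p = 0.0325), and it did not pass without T2F3 GMP 2, T2F3 GMP 3, WT GMP 2 or WT GMP 3, when no member fell.

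The largest positive differences in GMP were those of Rpl17 (0.55 ± 0.34, adjusted p = 0.300) and Rps24 (0.54 ± 0.37, adjusted p = 0.346), followed by Rpl32 at 0.48, Rpl32l at 0.44 and Rps27a at 0.43. Rps19bp1 (-0.23), Rpl34 (-0.18), Rpl29 (-0.06) and Rpl7l1 (-0.04; 0.02 after quantile normalization) were the other members below 0, none past the threshold.

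Both the median and the count turned on single libraries. The median was 0.01 without T2F3 GMP 2, 0.48 without T2F3 GMP 3 and 0.47 without WT GMP 1. When WT GMP 1 was left out, 46 members rose, against 15.8% of all genes, and with array weights, which gave WT GMP 1 a weight of 0.149 and T2F3 GMP 2 one of 0.233, 50 rose, against 16.8%. Without both libraries the median was 0.20 and 4 members rose, Rpl17 (0.42), Rps24 (0.39), Rpl32 (0.38) and Rpl5 (0.33), against 10.5% of all genes. Quantile normalization gave no call in either direction.

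The third comparison followed the normal step from MPP to GMP in WT mice. Of 82 members 34 were higher in GMP and none lower, with a median difference of 0.50 (all genes 0.03), where 25.4% of all tested genes rose and 23.2% fell. All 5 WT GMP libraries lay above all 4 WT MPP libraries in 65 members, against 22.6% of all genes. The paralog Rps27l, a p53-induced relative of Rps27, had the largest difference, at 0.92 ± 0.34 (SE, adjusted p = 0.0341). Rps27l read 9.28, 9.06, 9.36 and 9.17 in WT MPP and 11.51, 10.14, 9.61, 9.71 and 9.71 in WT GMP, so the groups were apart and WT GMP 1 was far above the rest. The paralog Rpl36al followed at 0.84 ± 0.16 (adjusted p = 0.000511), with 10.57, 10.58, 10.72 and 10.64 in MPP and 12.08, 11.51, 11.23, 11.28 and 11.23 in GMP. Rpl41 rose by 0.83, and Rps12 (0.77, adjusted p = 0.0607) and Rps25 (0.72, adjusted p = 0.0876) did not pass.

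At the low end of the WT step were Rps4x, the X-linked small-subunit gene (0.16 ± 0.12), Rpl23 (0.21), Rpl4 (0.27), Rpl7 (0.29) and Rpl3, which helps form the peptidyl transferase centre (0.31), and of these Rpl4 passed (adjusted p = 0.0483). After quantile normalization these 5 stood between -0.35 and -0.14. With WT GMP 1 and T2F3 GMP 2 left out, the median was 0.31 and 65 members were higher, against 31.9% of all genes. The count of members higher was 56 without T2F3 GMP 2 and 55 with array weights. It was 21 without WT GMP 2 and 22 without WT MPP 1. It was 18 without WT MPP 3, 22 without WT MPP 4 and 21 without WT MPP 5. The share of all genes is not given here for these fits. After quantile normalization 4 members were higher and 3 lower and the median was 0.08, so the size of this step and the sign of some members depended on the scaling.

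In T2F3 mice the same step gave no call in either direction by limma, with a median of 0.03 (all genes 0.01) and no member at an unadjusted p under 0.05, where 10.5% of all tested genes rose and 11.7% fell. No member had its T2F3 GMP libraries all above the T2F3 MPP libraries, against 16.1% of all genes. Among the extremes were Rps12, at 0.32 ± 0.40 (SE, adjusted p = 0.653), Rpl36al (0.24), Rps23 (0.22), Rps23rg1 (0.22) and Rps27a (0.21) above, and Rpl7 (-0.14 ± 0.17, adjusted p = 0.660), Rpl3 (-0.12), Rpl15 (-0.09) and Rpl7l1 (-0.08) below. Without WT GMP 1 and T2F3 GMP 2 the median was -0.22 and 12 members fell, against 15.6% of all genes that fell, a share near the background.

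The difference between the genotype effects, GMP minus MPP, was negative in all 82 members, with a median of -0.45 (all genes -0.01). None passed the threshold by limma, 9 had an unadjusted p under 0.05, and over all tested genes 1.38% were higher and 0.882% lower. Rps27l had the largest difference of effects, at -0.75 ± 0.53 (SE, adjusted p = 0.449), followed by Rpl41 (-0.64), Rpl13a (-0.63), Rpl27 (-0.63) and Rpl36 (-0.63). The smallest was that of Rps4x (-0.22 ± 0.18, adjusted p = 0.517), next to Rpl23 (-0.25), Rpl4 (-0.26) and Rps26 (-0.30). Without WT GMP 1 and T2F3 GMP 2 the median was -0.51. Then 56 of 82 members passed as lower, against 6.63% of all genes. Both libraries were picked because the members were high in them, so the 56 calls are a description. With array weights 5 members passed as lower, and the share of all genes is not given here for that fit. One library alone moved the median, to -0.73 without T2F3 GMP 2 and to -0.25 without WT GMP 1 or without T2F3 GMP 3. The genotype and population comparisons share libraries, so their values are side by side and are not separate evidence.

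To ask which members departed from the family, the median over the tested members was subtracted in each library from every gene. No member then passed in any of the 5 comparisons by limma, with 1, 1, 1, 0 and 0 members at an unadjusted p under 0.05 in the order above. Of all genes 36.4% passed relative to the members in the MPP comparison, 2.2% between genotypes in GMP, 27.0% in the WT step, 3.97% in the T2F3 step and 0.00824% in the difference of effects. Without WT GMP 1 and T2F3 GMP 2, 15 members rose more than the family in T2F3 MPP and 13 less. Over all genes 3.41% were higher and 83.1% lower relative to the members, whose own median rose by 0.72.

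In that fit without WT GMP 1 and T2F3 GMP 2, the members furthest above the family in MPP were Rpl13a (0.34 ± 0.09, SE, adjusted p = 0.00149), Rpl41 (0.34), Rpl17 (0.30), Rps18 (0.26), Rpl32 (0.26) and Rpl35a (0.25). Furthest below were Rps2 (-0.65 ± 0.10, adjusted p = 3.76e-05), Rpl34 (-0.54), Rpl29 (-0.45), Rpl4 (-0.41), Rpl23 (-0.41) and Rps19bp1 (-0.39). Rpl34 had a mean of 4.37, close to the minimum of 4, where the regularized log draws values together, so its place here is uncertain.

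Across the 15 libraries the members rose and fell together. The correlation of a member with the median of the other members had a median of 0.986 and was at least 0.9 in 70 of 82. Among the lowest were Rps2 (0.11), Rpl4 (0.44), Rps19bp1 (0.69) and Rpl28 (0.70). Without WT GMP 1 and T2F3 GMP 2, 69 of 82 were at least 0.9 and Rps2 stood at 0.21. These are descriptions over libraries of 4 groups.

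The 3 stalk proteins, which recruit translation factors to the large subunit, moved together. In T2F3 MPP Rplp0 rose by 0.66 ± 0.17 (SE, adjusted p = 0.00662), Rplp1 by 0.77 ± 0.21 and Rplp2 by 0.57 ± 0.16, 3 of 3 past the threshold. Rplp0 read 14.32, 14.29, 14.34 and 14.28 in WT MPP and 14.89, 15.02 and 15.01 in T2F3 MPP. All 3 also rose in the WT step, Rplp2 by 0.59, Rplp1 by 0.58 and Rplp0 by 0.53, and none passed between genotypes in GMP. The WT step of Rplp0 was -0.08 after quantile normalization.

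Rpl5 and Rpl11, which enter the ribosome with its smallest ribosomal RNA, rose in T2F3 MPP by 0.81 ± 0.29 (adjusted p = 0.0340) and 0.68 ± 0.20 (adjusted p = 0.0147). Neither passed in the WT step, at 0.49 (adjusted p = 0.120; -0.09 after quantile normalization) and 0.42 (adjusted p = 0.0598). Rps27a, made as a fusion to ubiquitin, rose in T2F3 MPP by 0.93 ± 0.35 (adjusted p = 0.0469). Fau, a further ubiquitin-type fusion gene that the symbol rule does not take, rose there as well, by 0.98 ± 0.27 (adjusted p = 0.0104).

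Of 19 Diamond-Blackfan anaemia genes 17 were tested and 14 rose in T2F3 MPP, none falling, with a median of 0.79, where 20.7% of all tested genes rose. Over the whole family 65 of 82 tested members rose, with a median of 0.72, so the share in this list is near that of the family. Rpl35a rose by 0.96 ± 0.33 and Rps7 by 0.84 ± 0.31. Rps19, the gene most often mutated in that anaemia, read 12.63, 12.61, 12.67 and 12.56 in WT MPP and 13.48, 13.45 and 13.42 in T2F3 MPP, a difference of 0.83 ± 0.31 (adjusted p = 0.0410). In the WT step 6 of the 17 rose and none fell, beside 34 of the 82 tested members. Over all genes 25.4% rose and 23.2% fell in that step. In GMP none of the 17 passed between genotypes.

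Paralogs kept their distance from their partners to different degrees. Rpl36al minus Rpl36a was -0.67 ± 0.09 in WT MPP (SD, n = 4), -0.55 ± 0.09 in T2F3 MPP (SD, n = 3), -0.32 ± 0.05 in WT GMP (SD, n = 5) and -0.40 ± 0.02 in T2F3 GMP (SD, n = 3). The MPP and GMP libraries did not overlap in this difference, with -0.78 to -0.45 in MPP and -0.42 to -0.26 in GMP. Rpl22l1 minus Rpl22 was -1.94 ± 0.12, -1.88 ± 0.13, -1.82 ± 0.25 and -1.85 ± 0.13 in the same order, overlapping throughout. Rpl7l1 minus Rpl7 was -2.96 ± 0.13, -3.10 ± 0.08, -2.85 ± 0.12 and -3.04 ± 0.05. These differences were not tested, and a difference between genes of unequal length is used only for its change between groups.

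**Figure D4:**
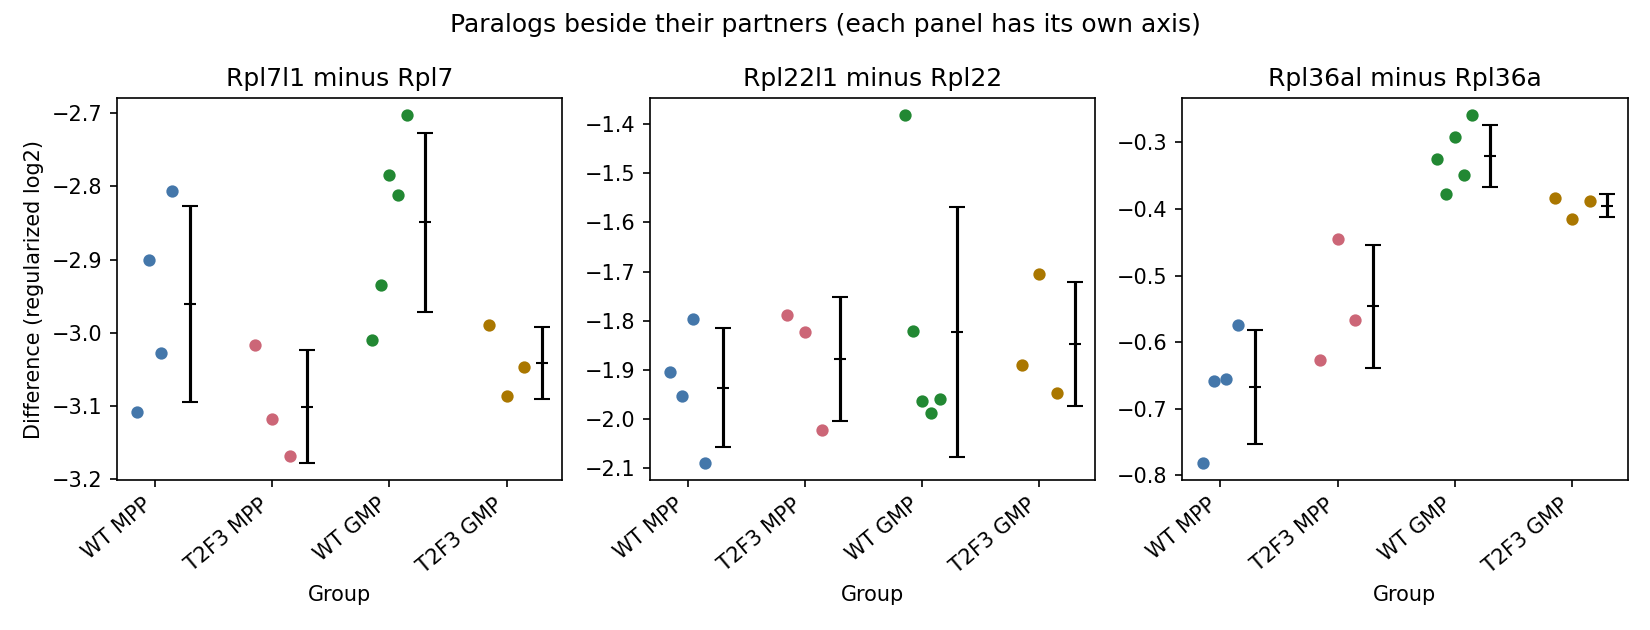
Level of a paralog minus that of its partner in each library (regularized log2, y axis) by group, for Rpl7l1, Rpl22l1 and Rpl36al. Points are libraries and black marks are mean ± SD. Rpl36al lies nearer to Rpl36a in the GMP groups (-0.32 and -0.40) than in the MPP groups (-0.67 and -0.55).

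Singly, Rpl36al (0.71 ± 0.19, adjusted p = 0.00847) and Rpl7l1 (0.44 ± 0.12, adjusted p = 0.00883) rose in T2F3 MPP. Rps27l (0.95 ± 0.39, adjusted p = 0.0584) and Rpl22l1 (0.65 ± 0.38, adjusted p = 0.172) did not pass. Of their partners, Rps27 was untested and Rpl22 (0.59, adjusted p = 0.100) did not pass. The libraries of the MPP groups were still apart. Rps27l ran from 9.06 to 9.36 in WT MPP and from 10.12 to 10.21 in T2F3 MPP. Rpl22l1 ran from 9.77 to 10.05 and from 10.46 to 10.61, and Rpl22 from 11.76 to 11.88 and from 12.39 to 12.48. Rps4l, listed as a pseudogene and so no member, fell in T2F3 by 0.54 in MPP and by 0.80 in GMP (adjusted p = 0.0125 and 0.00128), with Rps4x, its relative, at 0.37 in MPP (-0.13 after quantile normalization).

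Other genes of protein synthesis were read from lists of textbook members, to be read against the 20.7% of all tested genes that rose and the 19.6% that fell in T2F3 MPP. Of 36 initiation factors 11 rose and 3 fell in T2F3 MPP (median 0.19). Eif3h and Eif3m, subunits of the factor that binds the small subunit, rose by 0.82 and 0.79, and the scaffold Eif4g1 fell by 0.56. Of 60 ribosome biogenesis factors 7 rose and 6 fell (median 0.02), with Nip7 at 0.65 and the nucleolar protein Npm1 at 0.56, and Mdn1, a large-subunit remodelling ATPase, at -0.62. In T2F3 GMP, where 6.04% of all genes fell and 9.25% rose, 10 of the 60 biogenesis factors fell and none rose, Rrp12 by 0.62 and Gar1 by 0.58.

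Against the same background of 20.7% higher and 19.6% lower in T2F3 MPP, the smaller lists were as follows. Of 12 elongation and termination factors 4 rose and 1 fell in T2F3 MPP, with Eef1b2 at 0.85, Eef1a1 at 0.67 and Eef2k, the kinase that restrains elongation, at -0.77. Of 11 RNA polymerase I genes 3 rose and none fell, Polr1d by 0.73 and Polr1c by 0.50. A list of 12 genes with a TOP-type start or a place on the ribosome shares genes with the elongation factors, among them Eef1b2 and Eef1d. Of these 12, 9 rose, including Tpt1 by 0.82, and the ribosome-bound scaffold gene Rack1 rose by 0.71. Of 26 regulators of mTORC1 and ribosomal protein synthesis 5 rose and 7 fell, shares near those of all genes, with Mycn at 2.00 and Rraga at 0.83, and Deptor at -0.85 and Myc at -0.75.

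Lists outside the cytosolic ribosome moved in the same libraries. In T2F3 MPP 32 of 80 mitochondrial ribosomal protein genes rose (median 0.41), 48 of 73 respiratory chain and ATP synthase genes (median 0.61) and 22 of 31 proteasome genes (median 0.54), none falling, where 20.7% of all genes rose. In WT GMP 1 the median deviation was 0.68, 0.89 and 0.52 for these lists, and in T2F3 GMP 2 it was 0.39, 0.65 and 0.38. Biogenesis factors deviated by -0.13 and -0.25 in those libraries and initiation factors by 0.01 and -0.15. In WT GMP against WT MPP 59, 64 and 28 of the first 3 lists rose and none fell, where 25.4% of all genes rose and 23.2% fell.

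**Figure D5:**
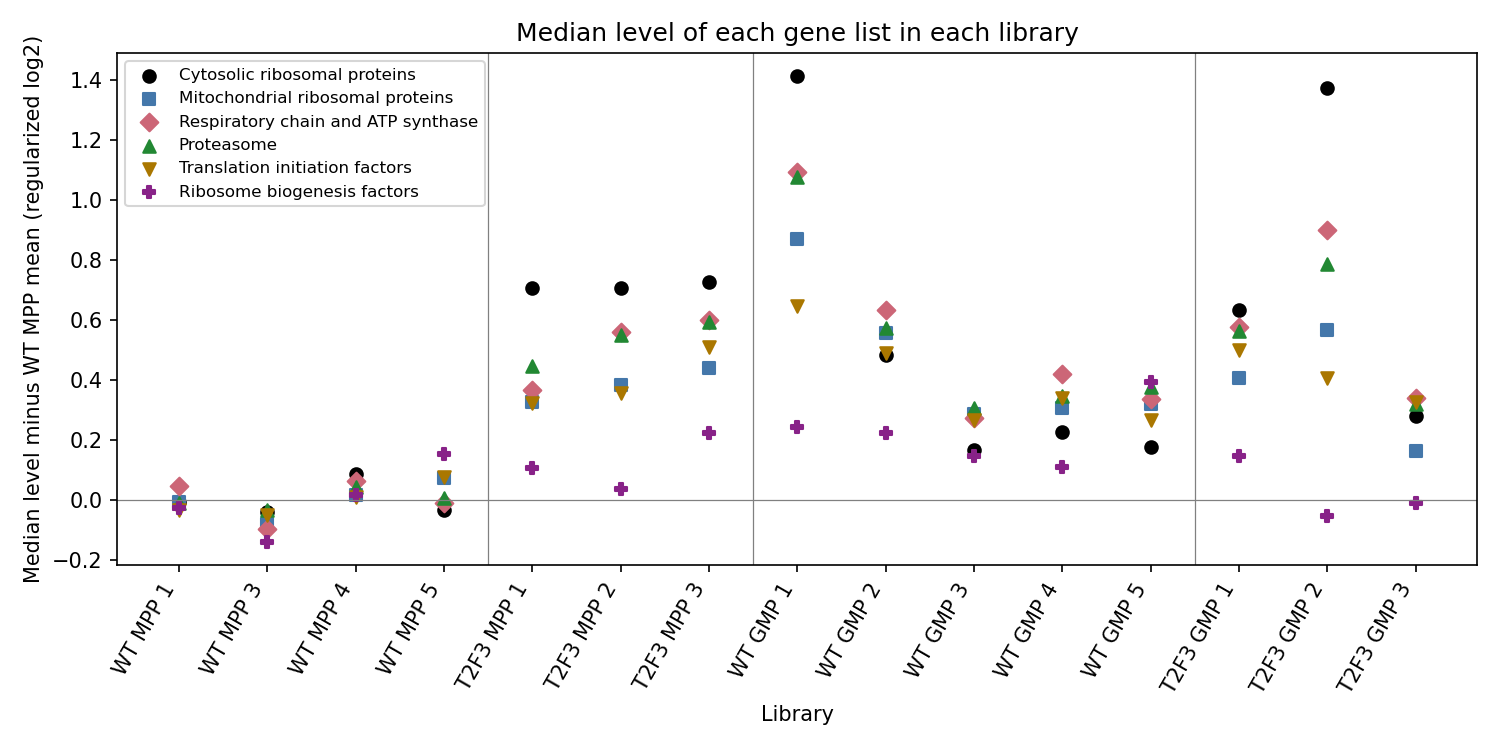
Median level of 6 gene lists in each of the 15 libraries, minus the list's mean over the 4 WT MPP libraries (regularized log2, y axis); vertical lines separate the 4 groups. The cytosolic ribosomal proteins (black) reach the highest points, in WT GMP 1 and T2F3 GMP 2, where respiratory chain, mitochondrial ribosomal and proteasome genes are also raised. Biogenesis factors are raised less in WT GMP 1 and are not raised in T2F3 GMP 2.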

How the data were processed

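Stranded mRNA libraries were sequenced, per the labels' protocols. One table of log2 values was deposited, and its name marks them as regularized log values. STAR, Bowtie, HOMER, DESeq2 and the mm9 build appear in the submitters' processing notes, with no roles or settings. No counts are held, so depth is unknown. The regularized log shrinks low genes. Entrez IDs were matched to symbols and biotypes with the RefSeq table of GRCm38.p6 (24345 of 24424 matched). Of 56 samples in the series, 41 are of genomic DNA and were left aside.

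Group means were fitted with lmFit and eBayes (trend and robust) of limma 3.58.1 in R 4.3.3, over 15 libraries and the 12133 genes whose mean was at least 4. The 5 contrasts were tested two-sided with Benjamini-Hochberg adjustment over all tested genes and a threshold of 0.05. Differences carry limma's SE. A second fit subtracted the median over the tested members in each library. Members, lists, contrasts and alternatives were chosen with earlier results of these data known. Named members were the 5 highest and 5 lowest of each comparison and any called against the majority; up to 6 per sign past the threshold relative to the family; paralogs and partners; stalk, RPL5 and RPL11, and ubiquitin-fusion genes; the 3 highest and lowest means; members under the filter; the 5 with the lowest correlation with the others; and, from other lists, the 2 highest and lowest past the threshold. Rps24, Rps19, Tpt1 and Rack1, where outside this rule, were named after their values were seen. Some genes that the rule takes are not reported here.

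On simulated data for 12133 genes, 46% of changes of 0.5 log2 and 90% of changes of 1 were recovered for the MPP genotype contrast, with 4.05% of calls false. For the GMP contrast it was 46% and 94%, with 3.47% false, and for the difference of effects 20% and 64%. Noise was drawn independently for each gene, so this does not cover genes that move together. Alternative fits used quantile normalization, median centring, array weights, a pseudocount of 8, plain eBayes, only the groups compared, replicate blocks, a minimum mean of 6 or none, each library left out, both libraries that stand apart left out, and the mean in place of the median. Joins used pandas 2.3.3 and NumPy 2.4.6 in Python 3.11.15, and figures Matplotlib 3.10.9.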

Additional observations from a re-analysis of the deposited data

Results flagged for a closer look

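Gaps between libraries were read in the 2 WT groups for the members named in the text and for 3 medians over members, 84 groups of values in all. A library is given here when its gap to the nearest other library, as a share of its group's whole range, exceeded Dixon's critical value for a group of its size. Chance flags about 1 in 20 independent groups, and 25 were found. These groups are not independent, since the members move together and WT GMP 1 was known to stand apart when they were chosen, so the number found is a description and no further evidence. The T2F3 groups of 3 libraries were not examined in this way.

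In 20 of the 25 the library was WT GMP 1, at the high end, which repeats 1 shift of that library across members. The share of the range was 0.744 for the median over all tested members and 0.724 for the small-subunit median. Among large-subunit genes it was 0.774 for Rpl13a, 0.754 for Rpl17, 0.748 for Rpl22, 0.785 for Rpl32, 0.737 for Rpl35a, 0.717 for Rpl41 and 0.81 for Rpl5. Among small-subunit genes it was 0.735 for Rps12, 0.764 for Rps18, 0.765 for Rps19, 0.729 for Rps23, 0.785 for Rps24, 0.763 for Rps25 and 0.771 for Rps27a. The paralogs Rpl22l1 and Rps27l stood at 0.75 and 0.724, and the retrocopies Rpl32l and Rps23rg1 at 0.722 and 0.754.

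The remaining 5 lay in other libraries. WT GMP 2 was apart for Rpl4 (0.827). WT MPP 3 was apart for Rpl11 (0.862), Rpl27 (0.932) and Rpl36 (0.941), and WT MPP 4 for Rpl41 (0.91). In WT MPP the whole range of such a gene is small, as Rpl41 ran from 13.03 to 13.15.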

How the results depend on the processing

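Depth and counting error are not known, each group has 3 to 5 libraries, and 2 GMP libraries set much of the spread. The sign of the members' median held under all alternatives in every comparison except the step from MPP to GMP in T2F3, where no member passed. No scaling moved the median of all genes by 0.1. Where a count or a sign changed, the cause was not tested.

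The count of members higher in T2F3 MPP was 65 and became 27 with quantile normalization and 19 to 80 with 1 library left out. In GMP the 0 members higher became 50 with array weights, 4 without WT GMP 1 and T2F3 GMP 2, and 0 to 46 with 1 library left out. The 1 member lower in GMP became 0 with array weights, with quantile normalization, with the GMP groups alone and without both libraries, and 0 to 1 with 1 left out. In the WT step the 34 higher became 55 with array weights, 65 without both libraries and 18 to 56 with 1 left out, and quantile normalization gave 4 higher and 3 lower. In the T2F3 step the 0 lower became 2 with quantile normalization and 12 without both libraries. For the difference of effects the 0 lower became 5 with array weights, 56 without both libraries and 0 to 1 with 1 left out.

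Relative to the family's median no member passed in any comparison. Without both libraries 15 were higher and 13 lower in MPP, 2 lower in GMP, 5 higher in the WT step, 6 higher in the T2F3 step and 1 lower in the difference of effects. With the mean in place of the median 1 was lower in MPP. With 1 library left out 0 to 3 were lower in MPP and 0 to 3 in GMP.

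Some replicate numbers recur across groups. Same-numbered MPP and GMP libraries deviated together at r = 0.059 for WT 1 and 0.055 for T2F3 1 and at 0.105 to 0.464 for the others. MPP libraries WT 3, WT 5, T2F3 2 and T2F3 3 correlated best with the GMP library of their own number. WT 1, WT 4 and T2F3 1 correlated better with another number. Whether a number marks a shared animal or batch cannot be told from these values. With the number as a block 3 members were higher in T2F3 MPP and 21 in the WT step. With genotype and number as a random block these were 64 and 45, and the other counts of members did not change.

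Of 1783 recomputed values of named members 35 had the opposite sign. With quantile normalization these were, in MPP, Rpl4 (-0.322), Rpl23 (-0.02) and Rps4x (-0.131), and in GMP Rpl7l1 (0.021). In the WT step they were Rps4x (-0.347), Rpl4 (-0.321), Rpl7 (-0.274), Rpl23 (-0.212), Rpl3 (-0.143), Rpl5 (-0.086) and Rplp0 (-0.079). In the T2F3 step they were Rps27a (-0.036), Rps23 (-0.014) and Rps23rg1 (-0.009), and for the difference of effects Rpl4 (0.146) and Rps4x (0.043). With array weights Rpl7l1 (0.092) and Rpl29 (0.059) changed sign in GMP and Rps27a (-0.012) in the T2F3 step. Without both libraries Rps27a (-0.237), Rps12 (-0.134), Rps23 (-0.101) and Rps23rg1 (-0.091) did so in the T2F3 step.

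With 1 library left out, Rps2 ran from -0.008 to 0.14 in MPP, and in GMP Rpl29 ran from -0.131 to 0.05, Rpl7l1 from -0.109 to 0.083 and Rps27a from -0.015 to 0.76. In the T2F3 step Rpl15 ran from -0.352 to 0.125, Rpl7l1 from -0.148 to 0.044, Rps12 from -0.134 to 0.636, Rps27a from -0.237 to 0.537, Rps23 from -0.101 to 0.455 and Rps23rg1 from -0.091 to 0.454. None of the values that changed sign under these fits had passed the threshold in GMP or in the T2F3 step.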
